A study of Mus musculus with 4 samples.

Results

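Glutamate and GABA act on cells through receptor channels and through receptors coupled to G proteins. Among the glutamate-gated channels, AMPA receptors (subunit genes Gria) carry fast excitation, kainate receptors (Grik) shape it, NMDA receptors (Grin) pass calcium, and the delta subunits (Grid) work mainly as partners of secreted synaptic proteins. The metabotropic glutamate receptors (Grm) signal through G proteins, GABA-A receptors (Gabra, Gabrb, Gabrg and related genes) are chloride channels built of 5 subunits, and GABA-B receptors pair the products of Gabbr1 and Gabbr2. In the pituitary, hypothalamic GABA fibres reach the melanotropes of the intermediate lobe, and hormone cells of the anterior lobe also carry receptors for both transmitters. The glutamate and GABA receptor genes were taken from the deposited feature list by symbol: every gene named as an AMPA, kainate, delta, NMDA or metabotropic glutamate receptor or as a GABA-A, GABA-rho or GABA-B subunit, without opposite-strand transcripts and without Grina. The rule gave 47 genes of 32285, namely 4 AMPA, 5 kainate, 2 delta, 7 NMDA, 8 metabotropic glutamate, 19 GABA-A or rho and 2 GABA-B genes.

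Nuclei came from snap-frozen whole pituitaries of wild-type UM-HET3 mice, a genetically mixed stock from a cross of several inbred strains. There were 4 libraries: 1 labelled as males and 1 as females of 5 months, and 1 labelled as males and 1 as females of 22 months. Each was a pool of 3 glands, and no group had another library. No mutation, transgene or treatment is given in the labels. Values are given in that order of libraries throughout. The 4 libraries held 33328821, 35240987, 65773807 and 49262366 unique transcript counts (UMIs), and 7156, 6597, 10355 and 7235 nuclei were kept, with a median of 3460, 3643, 4141 and 4745 UMIs. Of 31343 nuclei, 30363 fell in 11 classes named from marker genes (for example Prl in lactotropes, Gh in somatotropes and Pomc in corticotropes and melanotropes), and 905 stayed in clusters that were not named. The receptor genes were kept out of the genes used for clustering.

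The sex-chromosome transcripts went against the labels of 2 libraries. Xist was read in 0.112, 0.212, 97.3 and 85.8% of nuclei, and transcripts of 4 Y-linked genes in 85.6, 84.3, 0.203 and 0.304%. The library labelled 5-month females thus carried Y transcripts and almost no Xist, and the library labelled 22-month males carried Xist and almost no Y transcripts. The groups are kept as labelled, so in every comparison of labelled age the age and the sex-chromosome transcripts cannot be told apart, and each comparison of labelled sex sets side by side libraries with the same sex-chromosome transcripts. If the labels of these 2 libraries were exchanged, each comparison of labelled age would be one of sex and each comparison of labelled sex one of age. Whether they were exchanged was not tested beyond these transcripts. Every direction below is that of the labels. Pairs of libraries shared 14 to 43 cell barcodes, none of them with identical counts.

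A level is given in CPM, the usual scaling of a gene's UMIs to the total UMIs, here those of all nuclei of a class in a library. Of the 47 genes, 31 reached 10 CPM in all 4 libraries of at least 1 class. These included all 4 AMPA, all 5 kainate and both GABA-B genes, but only 4 of 7 NMDA, 4 of 8 metabotropic and 10 of 19 GABA-A genes. The 16 genes under that level included Gabra5, Gabra6, Gabrd, Gabrp, Gabrq, Gabrr1, Gabrr2, Gabrr3, Grin2c, Grin2d, Grin3b, Grm2 and Grm4. The genes that passed are long, with a median span of 319 kb against 30.6 kb over the 12896 genes that passed, and the 16 that did not pass had a median of 29.6 kb. Long genes give more intronic UMIs in nuclei if introns are counted, and whether they were is not stated in the labels or file headers. Levels of different genes are therefore ranked only per 100 kb of gene, and CPM values set side by side are not corrected for length. The depth limits what can be seen: in the class with the fewest nuclei, 46 pituicyte-like nuclei of the library labelled 5-month males, 3 counts correspond to 14.5 CPM. In endothelial-like nuclei 3 counts correspond to 33.4, 14.4, 10.7 and 8.15 CPM, and in macrophage-like nuclei to 17.2, 16.3, 16.2 and 8.33 CPM. In some libraries of both classes, fewer than 3 counts thus suffice for 10 CPM.

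Melanotrope-like nuclei held the most receptor genes, 21 of 47 at 10 CPM or more in all 4 libraries (28.6% of all 32285 genes reached that level there). Thyrotrope-like nuclei held 17 (26.1%), corticotrope-like nuclei 16 (26.4%), and gonadotrope-, lactotrope- and somatotrope-like nuclei 15 each (27.8%, 27.7% and 27.4%). Stem-like nuclei held 13 (27.2%), fibroblast and mural-like nuclei 11 (24.6%), macrophage-like nuclei 10 (24.6%), pituicyte-like nuclei 10 (22.9%) and endothelial-like nuclei 7 (22.4%). With called doublets kept, the numbers were 21 in stem-like, 23 in macrophage-like, 18 in pituicyte-like and 17 in endothelial-like nuclei. For 15 of the 31 genes, all 4 values in the highest class lay above every value of every other class, which was the case for 19.3% of all genes that passed and for 690 of the 2338 that span 100 kb or more. These 15 were Gria3, Grik1, Grik2, Grik3, Grik4, Grid1, Grin1, Grin2a, Grm7, Grm8, Gabra2, Gabra3, Gabrb2, Gabrg1 and Gabrg3. Grin1 and Gabrg1 among them span 28.0 and 91.6 kb. The 31 genes, which span 18.8 kb or more, were not split by length for this count. Class levels are a description without a test. The map of median levels shows genes that passed by class.

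**Figure D1:**
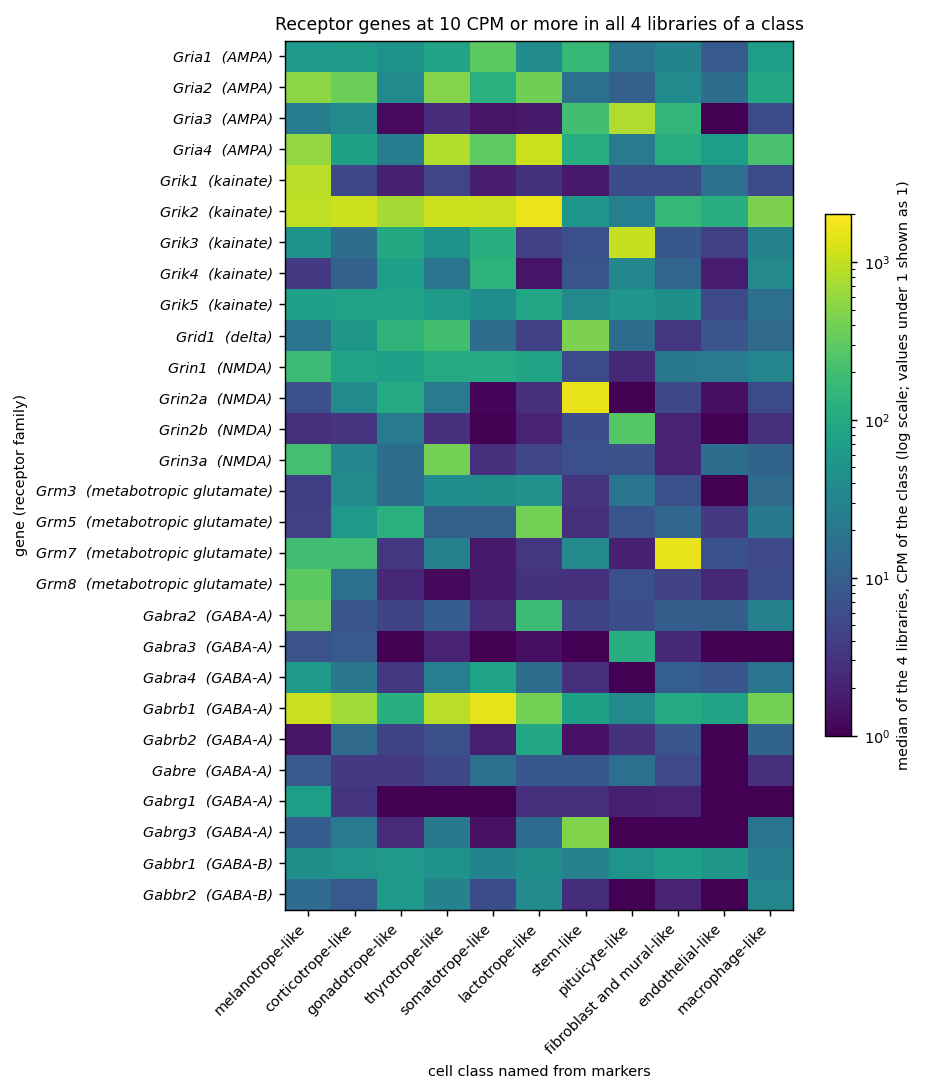
Median level over the 4 libraries (colour) of glutamate and GABA receptor genes that reached 10 CPM in all 4 libraries of a class, with genes in rows by family and the 11 marker-named classes in columns. Grik1 stands out in melanotropes, Grin2a in stem-like nuclei, Grm7 in fibroblast and mural nuclei and Gria3 and Grik3 in pituicytes, while Grik2 and Gabrb1 are high in most hormone-cell classes.

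Among the AMPA genes, Gria2 encodes the subunit that keeps the channel closed to calcium. Its melanotrope levels were 557, 667, 535 and 449.6 CPM, and those in thyrotropes, 539, 468, 498 and 483 CPM, lay within that range. In pituicyte-like nuclei Gria2 was at 4.84, 12.7, 18.8 and 7.76 CPM, whereas Gria3 was highest there of all classes, at 755, 787, 842 and 1311 CPM. All 4 pituicyte values of Gria3 lay above every other value (242 CPM at most). Gria4 was led by lactotropes at 1542, 1722, 709 and 677 CPM, where the libraries labelled 5 months were higher than both labelled 22 months, and Gria1 by somatotropes at 147, 291, 294 and 536 CPM. The thyrotrope values of Gria4, 954, 910.3, 746 and 737 CPM, overlapped those of lactotropes, and the somatotrope and stem-like values of Gria1 (239, 202, 57.8 and 123 CPM in the latter) overlapped too.

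Of the kainate genes, Grik1 (chromosome 16, 87895900 to 88290265, minus strand, mm10 in the GENCODE annotation) was read mainly in melanotropes, the intermediate-lobe cells that make melanocyte-stimulating hormone. Its levels there were 756, 872, 1139 and 958 CPM. The highest value in any other class was 167 CPM, in the endothelial-like nuclei of the library labelled 22-month males, where the melanotrope marker Oacyl was also read, at 156 CPM. The part of that marker in the endothelial value was not tested. With each nucleus thinned to 1500 UMIs, Grik1 was found in 59.5, 63.8, 71 and 61.4% of melanotrope-like nuclei and in 0, 0.478, 0.368 and 0.383% of stem-like nuclei, a class with almost no Grik1. Unthinned, the melanotrope shares were 83, 89.4, 91.4 and 83.7%. Grik3 was highest in pituicytes, at 1027, 765, 1003 and 1020.0 CPM, and Grik2 in lactotropes, at 1654, 1324, 1769 and 1584 CPM. All 4 lactotrope values of Grik2 lay above every value elsewhere, but by little, since the highest of these was 1317 CPM. Grik4, a subunit that forms channels only with Grik1 to Grik3, was highest in somatotropes at 163, 151, 121 and 115 CPM. Grik5, of the same kind, was spread widely and led by lactotropes at 81.8, 75.4, 104 and 94.1 CPM.

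NMDA receptors need the obligatory subunit Grin1 together with a glutamate-binding Grin2 subunit. Grin1 was highest in melanotropes, at 171, 175, 204 and 196 CPM, and per 100 kb of gene its median of 662 CPM was the highest of the 47 genes. Grin2a and Grin2b were highest in other classes. Grin2a (chromosome 16, 9567898 to 9995560, minus strand) reached 1470.0, 1737, 1307 and 1658 CPM in stem-like nuclei, the Sox2-type progenitor class, and at most 342 CPM in any other. In the same stem-like nuclei Grin1 was at 3.81, 4.56, 11.3 and 6.36 CPM. Thinned to 1500 UMIs, Grin2a was found in 67.5, 74.2, 65.1 and 69.7% of stem-like nuclei and in 0.0476, 0.209, 0.566 and 3.52% of lactotrope-like nuclei. Unthinned, these shares were 70.1, 81.3, 72.8 and 77.4% and 0.232, 0.360, 1.61 and 8.16%. Grin2b was led by pituicytes at 29.1, 313, 725 and 233 CPM, a spread of over an order of magnitude between libraries of 46 to 99 nuclei. Grin3a, whose product binds glycine and lowers calcium flow, was highest in thyrotropes at 303, 364, 467 and 459.7 CPM. In thyrotropes Grin1 stood at 85.1, 119, 92.6 and 136 CPM and in somatotropes, where no Grin2 gene reached 10 CPM, at 105, 104, 104 and 99.3 CPM.

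The delta gene Grid1 was highest in stem-like nuclei, at 395, 522, 417 and 473 CPM, and no other value reached the lowest of these. Among the metabotropic genes, Grm8, which lowers cyclic AMP, was highest in melanotropes at 248, 428, 205 and 349 CPM. Grm5, which couples to calcium release, was led by lactotropes at 50.8, 180.0, 635 and 654 CPM, and Grm3 likewise by lactotropes at 56.5, 68, 36.4 and 28.1 CPM. Grm7 (chromosome 6, 110645581 to 111567230, plus strand), in the brain a presynaptic brake on release, was highest in fibroblast and mural-like nuclei at 881, 1073, 2051 and 3093 CPM.

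The fibroblast and mural class holds more than 1 cell type. Nuclei with UMIs of the mural (vessel wall) marker list and none of the fibroblast list had Grm7 at 1942, 2384, 5088 and 4730.0 CPM, in only 7, 13, 20 and 28 nuclei. Those with fibroblast UMIs alone had 450.5, 347, 415 and 419 CPM, in 24, 30, 39 and 18 nuclei. In each library the mural-only value was above the fibroblast-only value, and the mural-only values of both libraries labelled 22 months were above both labelled 5 months. Nuclei with UMIs of both lists, the largest group at 54, 72, 85 and 64 nuclei, had 1025, 1246, 2354 and 3483 CPM. These values too were higher in both libraries labelled 22 months. The fibroblast-only values did not separate by labelled age. The split was made after the class had been seen to be mixed. Over the whole class the mural list summed to 953, 1036, 1308 and 1479.7 CPM and the fibroblast list to 3779, 2708, 2165 and 1423 CPM, so the makeup of the class moved with labelled age, and its part in the Grm7 levels of the class was not tested beyond this split.

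**Figure D2:**
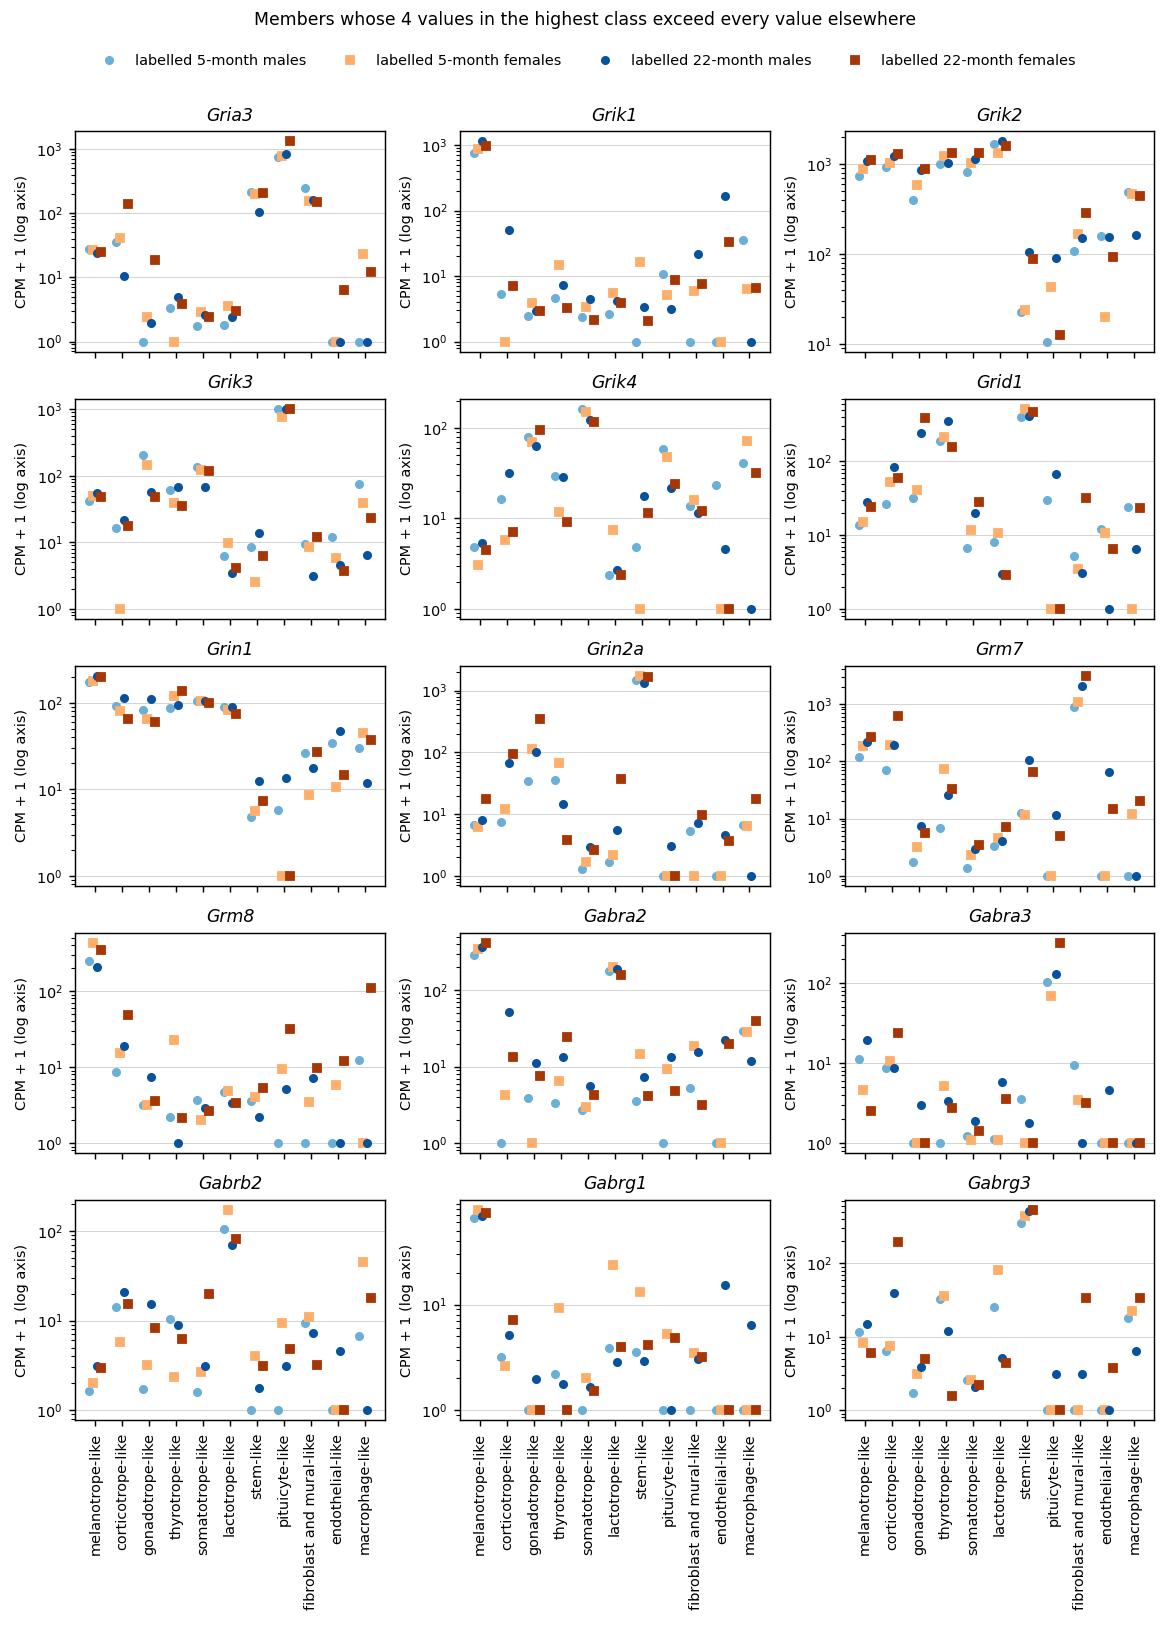
Levels in each library (points, CPM + 1 on a log axis) of receptor genes whose 4 values in the highest class lay above every value elsewhere, with the classes along the axis. The melanotrope points of Grik1 lie between 756 and 1139 CPM and the stem-like points of Grin2a between 1307 and 1737 CPM, both clear of the other classes.

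The GABA-A genes divided among the classes by subunit. Gabrb1 was highest in somatotropes, at 987, 1468, 1555 and 1892 CPM, and Gabrb2 in lactotropes, at 103, 169, 68.2 and 80.3 CPM. Beta subunits are needed for the channel to assemble, and each hormone-cell class had Gabrb1 above 10 CPM in all 4 libraries. The alpha and gamma subunits were more divided. Gabra2 was highest in melanotropes, at 291, 347, 368 and 415 CPM, followed by lactotropes at 180.1, 198, 190.3 and 158 CPM. Gabrg1 was at 65.5, 77.3, 67.3 and 72.5 CPM in melanotropes, and no value elsewhere reached 65.5 CPM. Gabrg3 was highest in stem-like nuclei at 350.4, 435, 524 and 530.3 CPM, beside beta-subunit levels there of 26.7, 70.0, 84.3 and 82.7 CPM for Gabrb1. Gabra3 was highest in pituicytes at 102, 67.7, 129.6 and 314 CPM and Gabra4 in somatotropes at 85.5, 88.9, 78.4 and 73.7 CPM, while Gabre, a rarely used subunit, was at 23.4, 14.5, 18.4 and 10.5 CPM in somatotropes, with a median of 16.4 CPM there and of 16.2 CPM in pituicytes.

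GABA-A genes lie in clusters, and 16 of them form 11 neighbour pairs within 1000 kb of each other on 5 chromosomes. In 4 of these pairs both genes passed 10 CPM, and 2 pairs had the same highest class: Gabrg1 and Gabra2, 115 kb apart on chromosome 5 and both highest in melanotropes, and Gabra4 and Gabrb1, which start head to head on chromosome 5, overlap by 196 bases in the annotation and were both highest in somatotropes. The strand used in counting is not given, so UMIs in such an overlap cannot be assigned to 1 gene with certainty. The 250 bases before the start of these 4 genes are shown because each pair shares a highest class and Gabra4 and Gabrb1 share a start region. They are from RefSeq on GRCm38.p6, 5′ to 3′ on the strand of the gene, at chr5:71658309-71658558 (minus strand) for Gabra4, chr5:71657671-71657920 (plus strand) for Gabrb1 at the first of its 2 listed starts, chr5:71095850-71096099 (minus strand) for Gabra2 and chr5:70842618-70842867 (minus strand) for Gabrg1. Capitals mark the GC box (GGGCGG or, on the other strand, CCGCCC).
Gabra4: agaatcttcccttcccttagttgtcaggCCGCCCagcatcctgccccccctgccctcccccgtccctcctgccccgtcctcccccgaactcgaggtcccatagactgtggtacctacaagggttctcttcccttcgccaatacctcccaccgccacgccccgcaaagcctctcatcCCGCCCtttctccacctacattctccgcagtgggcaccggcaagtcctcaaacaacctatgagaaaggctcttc
Gabrb1: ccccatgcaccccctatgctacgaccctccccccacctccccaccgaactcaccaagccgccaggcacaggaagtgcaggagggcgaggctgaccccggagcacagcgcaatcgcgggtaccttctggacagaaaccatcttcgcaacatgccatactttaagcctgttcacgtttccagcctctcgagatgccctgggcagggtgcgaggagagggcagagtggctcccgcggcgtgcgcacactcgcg
Gabra2: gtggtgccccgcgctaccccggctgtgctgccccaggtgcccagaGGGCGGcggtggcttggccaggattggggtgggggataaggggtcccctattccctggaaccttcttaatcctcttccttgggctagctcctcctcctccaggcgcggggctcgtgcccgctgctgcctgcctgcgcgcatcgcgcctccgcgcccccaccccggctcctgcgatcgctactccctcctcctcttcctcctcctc
Gabrg1: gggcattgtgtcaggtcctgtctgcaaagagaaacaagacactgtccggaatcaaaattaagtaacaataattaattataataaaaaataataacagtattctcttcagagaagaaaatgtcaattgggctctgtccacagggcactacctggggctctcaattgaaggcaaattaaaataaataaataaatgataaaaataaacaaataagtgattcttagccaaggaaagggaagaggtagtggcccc

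The upstream windows of Gabra4, Gabrb1 and Gabra2 held 12, 18 and 18 CpG dinucleotides, and that of Gabrg1 held 1, so the 2 genes of the melanotrope pair differ in base composition (70% and 35.6% G or C). RefSeq windows of this length were matched for 39 starts of 32 of the receptor genes, and none was matched for Grik1, Grin2a or Grm5. The GC box was found on either strand in 18 of the 39 (46.2%), against 32.7% of all 32851 windows. The letters TATAAA were found in 4 (10.3% against 12.4%), and those of the cyclic AMP response element, TGACGTCA, in none of 39 (against 1.55%). The median was 9 CpG per window, against 6 over all windows. A match of letters is a description of the window and shows no binding.

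The GABA-B genes differed in breadth. Gabbr1, which binds GABA, passed 10 CPM in all 11 classes, with 27.4 to 34.2 CPM in somatotropes. Its median was highest in fibroblast and mural-like nuclei, at 72.2 CPM (65.8 to 97.5 CPM), but the highest value elsewhere was 123 CPM. Gabbr2, which carries the complex to the membrane and couples it to G proteins, passed in 3 classes only and was led by gonadotropes at 35.1, 57.7, 60.2 and 74.3 CPM. The lactotrope values of Gabbr2, 101, 66.4, 11.3 and 2.63 CPM, differed widely between labelled ages. Per 100 kb of gene, the highest class median of Gabbr1 was 248 CPM and that of Gabbr2 17.9 CPM.

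The libraries labelled 22 months were compared with those labelled 5 months within each class, with labelled sex in the fit, by edgeR's quasi-likelihood test with p-values adjusted over all genes tested in the class. The pools are the only samples and each group has 1, so no spread between replicate pools was measured. The 1 residual degree of freedom is the difference of the labelled age effect between the labelled sexes, and the rest of the precision is borrowed from other genes. The weight of this borrowing, in prior degrees of freedom, was 6.10 in lactotropes, 217 in stem-like nuclei and infinite in pituicytes. The p-values of different classes thus rest on other genes to unlike degrees. Of 215 tests of receptor genes in a class, 59 passed at an adjusted p under 0.05 (7.23% of all tests of genes in the 11 fits passed), 38 higher and 21 lower at 22 months. A fit with 1 library left out had labelled age as its only term, so the missing library and the missing sex term cannot be told apart in the losses given below. The calls fell on 25 genes, and 9 of these, among them Gabrb1, Gabrb2, Gabrg3, Gria1, Gria4, Grid1 and Grin2a, rose in some classes and fell in others. Grm5 and Grm7 each rose in 4 classes and Grin2b in 3. The plot of age differences shows the 59 calls by class.

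**Figure D3:**
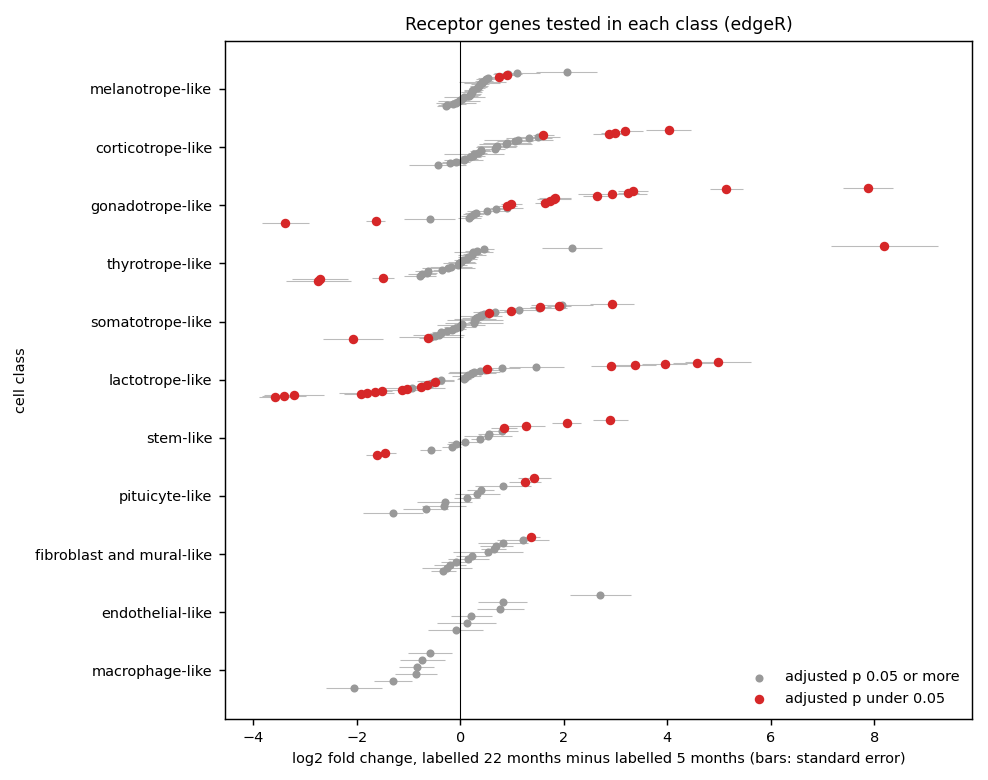
Log2 fold change of the libraries labelled 22 months against those labelled 5 months (horizontal axis, bars give the standard error) for each receptor gene tested, with the classes in rows and the genes that passed an adjusted p under 0.05 in edgeR's quasi-likelihood test in red. Lactotropes have 6 higher and 12 lower calls, gonadotropes 12 higher and 2 lower, and corticotropes 5 higher and none lower.

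In lactotropes, the prolactin cells, 18 of 36 genes tested changed, 6 higher and 12 lower, on a background of 21.4% of all genes (11.3% higher and 10.1% lower). Of the receptor genes spanning 100 kb or more, 13 of 25 were called, against 40.8% of all genes of that length. The glutamate side moved in both directions. Grm5 (chromosome 7, 87584168 to 88134907, plus strand) was at 50.8, 180.0, 635 and 654 CPM, so that both libraries labelled 22 months were above both labelled 5 months (log2 fold change 2.91 ± 0.39 (SE), adjusted p = 0.0032). The NMDA genes Grin2a, at 0.680, 1.16, 4.49 and 36.6 CPM, and Grin2b, at 0.408, 0.738, 3.47 and 12.6 CPM, rose by 4.56 ± 0.45 (SE) and 3.95 ± 0.44 (SE) on the log2 scale (adjusted p = 9.6e-04 and 0.0015). Their higher levels rested mostly on the library labelled 22-month females, and the males' values stayed under 5 CPM. Gria4 fell, with values of 1542, 1722, 709 and 677 CPM that did not overlap between labelled ages (log2 fold change -1.04 ± 0.15 (SE), adjusted p = 0.0043).

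Most of the lactotrope genes that fell were GABA receptor genes. Gabrb1, at 592, 870.1, 183 and 217 CPM, fell by 1.66 ± 0.14 (SE) on the log2 scale (adjusted p = 4.7e-04), and its head-to-head neighbour Gabra4, at 18.8, 46.3, 6.82 and 12.2 CPM, also fell (log2 fold change -1.52 ± 0.19 (SE), adjusted p = 0.0023). Gabbr2 went from 101 and 66.4 CPM in the libraries labelled 5 months to 11.3 and 2.63 CPM in those labelled 22 months (log2 fold change -3.58 ± 0.32 (SE), adjusted p = 5.8e-04), while Gabbr1 stayed at 49.6, 41.4, 43.3 and 40.6 CPM (adjusted p = 0.67). Gabrg3 was at 24.5, 81, 4.09 and 3.36 CPM (log2 fold change -3.41 ± 0.43 (SE), adjusted p = 0.0025). Gabrb2, Gabrg1 and Gabrr1 were also lower, and Gabra3 was the GABA gene that rose, at 0.136, 0.105, 4.75 and 2.57 CPM (adjusted p = 0.0026). With 1 count in each library labelled 5 months, its ratios of 34.9 (95% interval 6.14 to 1393) for the labelled males and 24.4 (4.18 to 984) for the labelled females are imprecise. Grid1, Grik3 and Grm3 were among the other lower calls and Grik5 among the higher ones. With 1 library left out and labelled age as the only term, the call was lost (library and highest adjusted p in brackets) for Gabbr2 (5-month males, 0.063), Gabra4 (5-month females or either 22-month library, 0.30), Gria4 (either 5-month library or 22-month females, 0.098) and Grin2a (either 5-month library, 0.17). The same held for Grin2b (either 5-month library, 0.11), Gabra3 (5-month females, 0.057), Gabrb2 (5-month females or either 22-month library, 0.51) and Gabrg1 (5-month females or either 22-month library, 0.97). So it was for Gabrr1 (any library, 0.11), Grid1 (5-month females, 0.082), Grik3 (any library, 0.35) and Grm3 (either 5-month library or 22-month females, 0.21). Further losses of this kind were seen for Grik5 (any library, 0.22). Grm5, Gabrb1 and Gabrg3 kept theirs. Under another setting with all 4 libraries, calls were lost (setting and highest adjusted p in brackets) for Gabra4 (labelled age as the only term, 0.073), Gabrb2 (DESeq2 and labelled age as the only term, 0.12), Gabrg1 (clustering at resolution 2 and labelled age as the only term, 0.13) and Gabrr1 (DESeq2, 0.075). This was also seen for Grik3 (DESeq2, clustering at resolution 2, labelled age as the only term, doublets kept and the receptor genes used in clustering, 0.25) and Grik5 (DESeq2 and library totals as the scale, 0.068).

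The lactotrope nuclei of the 2 labelled ages lay in different clusters, those labelled 5 months in cluster 7 and those labelled 22 months in clusters 21 to 24. Grm5 was at 362 to 989 CPM over the clusters with 100 nuclei or more of the library labelled 22-month males and at 539 to 903 CPM over those of the library labelled 22-month females, above the 5-month values in each. Thinned to 1500 UMIs, Grm5 was found in 5.94, 16.9, 45.6 and 47.4% of lactotrope-like nuclei and in 0.280, 0.525, 2.11 and 2.40% of somatotrope-like nuclei, and unthinned in 10.3, 27, 66.4 and 69.2% and 1.14, 1.48, 4.83 and 7.34%.

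In gonadotropes, the cells that make luteinizing and follicle-stimulating hormone, 14 of 22 genes changed, 12 higher and 2 lower, on a background of 10.1% (6.37% higher and 3.78% lower). Of the receptor genes of 100 kb or more, 13 of 17 were called, against 27.2% of all such genes, and the median log2 difference of the 22 genes was 0.95, against 0.33 over genes of that length. The genes that rose included 3 of the AMPA genes and 2 NMDA genes. Gria1 was at 5.01, 5.05, 94 and 248 CPM, with both libraries labelled 22 months far above both labelled 5 months (log2 fold change 5.14 ± 0.32 (SE), adjusted p = 5.6e-07). Gria2 was at 14.3, 10.1, 183 and 59.2 CPM (log2 fold change 3.34 ± 0.29 (SE), adjusted p = 9.7e-06), and Grid1 at 30.8, 40.4, 239 and 390.1 CPM (log2 fold change 3.24 ± 0.21 (SE), adjusted p = 6.4e-07). None of these values overlapped between labelled ages.

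Grin2b was at 0, 0.722, 45 and 144 CPM in gonadotropes, from 0 counts, 1 count, 92 counts and 219 counts. Against a floor of 3 counts per library it was at least 21-fold higher in the library labelled 22-month males than in that labelled 5-month males. The ratio of the labelled females, 199.6 (95% interval 35.5 to 7919.7, counting error only), rested on the single count (adjusted p = 5.4e-07 for labelled age). Grin2a rose as well, at 32.9, 113, 99.9 and 342 CPM, although the library labelled 5-month females was above that labelled 22-month males (log2 fold change 1.72 ± 0.19 (SE), adjusted p = 6.9e-05). The 2 genes that fell were Grik3, at 204, 147, 56.3 and 46.7 CPM (log2 fold change -1.64 ± 0.19 (SE), adjusted p = 1.3e-04), and Grin3a, at 25.1, 68.6, 4.41 and 2.63 CPM (log2 fold change -3.39 ± 0.45 (SE), adjusted p = 4.1e-04). Gria4 and Grik2 rose, Gria4 at 14.3, 15.2, 33.8 and 65.8 CPM (log2 fold change 1.83 ± 0.31 (SE), adjusted p = 0.0023). Among GABA-A genes, Gabrb1 and Gabrb2 were among those that rose, Gabrb1 at 109, 40.4, 287 and 128 CPM (log2 fold change 1.63 ± 0.19 (SE), adjusted p = 1.2e-04). Gabrb1 thus passed as higher in gonadotropes and as lower in lactotropes, in separate fits. Nearly all gonadotropes labelled 5 months lay in cluster 4 and those labelled 22 months in cluster 16. In the fits with 1 library left out, calls lost (library and highest adjusted p in brackets) were those of Gria1 (either 5-month library, 0.10), Gria2 (either 5-month library, 0.20), Grid1 (5-month males, 0.073) and Grin2b (either 5-month library, 0.14). The same held for Grin2a (either 5-month library or 22-month females, 0.58), Grik3 (5-month males, 0.12), Grin3a (5-month females, 0.16) and Gabrb1 (either 5-month library, 0.46). So it was for Gria4 (either 5-month library, 0.30), Gabrb2 (either 5-month library or 22-month males, 0.38) and Grik2 (either 5-month library, 0.45). Other settings ended the call (setting and highest adjusted p in brackets) of Grin2a (labelled age as the only term, 0.23), Grin3a (doublets kept, 0.10), Gabrb1 (labelled age as the only term and doublets kept, 0.55) and Gria4 (DESeq2, labelled age as the only term and doublets kept, 0.87). Further losses of this kind were seen for Gabrb2 (DESeq2, labelled age as the only term and doublets kept, 0.40) and Grik2 (labelled age as the only term and doublets kept, 0.11).

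In corticotropes, the cells that make adrenocorticotropic hormone, 5 of 25 genes changed and all 5 were higher, on a background of 2.67%. They all span 100 kb or more, as do 20 of the genes tested, against 9.65% of all such genes called. Grm5 was at 15.3, 16.1, 122 and 102 CPM (log2 fold change 2.87 ± 0.30 (SE), adjusted p = 1.3e-04), and Gria4 at 25.1, 20.9, 229.7 and 125 CPM (log2 fold change 2.98 ± 0.27 (SE), adjusted p = 4.5e-05). Gabrg3, at 5.45, 6.44, 38.8 and 196 CPM, and Grin2a, at 6.54, 11.3, 65.8 and 91.9 CPM, rose by 4.03 ± 0.44 (SE) and 3.18 ± 0.35 (SE) on the log2 scale (adjusted p = 1.8e-04 and 2.0e-04). In all 4 genes both libraries labelled 22 months were above both labelled 5 months. Grm7 was at 68.7, 193, 190.3 and 617 CPM, where the library labelled 5-month females and that labelled 22-month males nearly coincided (log2 fold change 1.60 ± 0.20 (SE), adjusted p = 6.3e-04). The library labelled 22-month females had 75 corticotrope-like nuclei. When a library was left out, calls were lost (library and highest adjusted p in brackets) for Gabrg3 (5-month males, 0.16) and Grm7 (5-month males or 22-month females, 0.65). Grm5, Gria4 and Grin2a kept theirs. The processing setting mattered (setting and highest adjusted p in brackets) for the calls of Gria4 (doublets kept with a reversed log2 fold change of -0.36, 0.42), Gabrg3 (doublets kept, 0.12), Grin2a (doublets kept, 0.30) and Grm7 (labelled age as the only term, 0.24).

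Prl, a marker of lactotropes, was read in every class and moved with labelled age: it stood at 7914, 3744, 48221 and 23268 CPM in corticotropes, at 6343, 3306, 42354 and 15367 CPM in thyrotropes, at 6885, 3795, 51464 and 20575 CPM in somatotropes and at 38743, 18005, 89990.5 and 56369.6 CPM in lactotropes. Of the other lactotrope markers, Angpt1 was at 16.4, 6.44, 311 and 18.4 CPM, Esr1 at 24, 32.2, 313 and 65.3 CPM and Drd2 at 5.45, 3.22, 42.3 and 20.4 CPM in corticotropes, high in the library labelled 22-month males, while in lactotropes Angpt1 was at 1228, 778, 1584 and 1726 CPM. None of the 4 markers was at 0 in corticotropes of any library. The corticotrope marker Pomc was at 29732, 41466, 12488 and 14149.6 CPM in corticotropes. In corticotropes of the library labelled 22-month females Angpt1 was near its 5-month level, while Prl, Esr1 and Drd2 were above both 5-month values. Grm5, Gria4 and Grin2a were also above both 5-month values in that library. The part of lactotrope RNA or nuclei in the calls outside lactotropes was not tested. In lactotropes themselves Grm5 was at 180.0 CPM in the library labelled 5-month females, and in melanotropes, where Prl was at 6612, 3332, 40258 and 19369 CPM, it was at 1.27, 2.07, 7.71 and 6.46 CPM. Gria4 fell in lactotropes in the comparison in which it rose in corticotropes. Its lactotrope levels in the libraries labelled 22 months, 709 and 677 CPM, were still above all its corticotrope levels. The bearing of these levels on the corticotrope calls was not tested.

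Markers of other classes were also read beside the lactotrope, gonadotrope and corticotrope calls. The 5 genes of the pituicyte list summed to 7.75, 17.3, 141 and 265 CPM in lactotropes and to 10.7, 11.5, 78.3 and 88.1 CPM in gonadotropes. These sums were higher in both libraries labelled 22 months, as were Grin2b in both classes and Gabra3 in lactotropes. Nearly all of this came from Col25a1, at 5.03, 13.2, 133 and 262 CPM in lactotropes and 7.88, 10.8, 76.4 and 86.2 CPM in gonadotropes. Slc1a3 was at 0.815, 1.37, 6.38 and 2.36 CPM in lactotropes. Rax was at 0.544, 0.422, 0.352 and 0.0525 CPM in lactotropes, against 131, 123, 113 and 139.6 CPM in pituicytes. In gonadotropes Rax was at 0 in 3 libraries. The 6 genes of the neuron list summed to 37.2, 46.2, 102 and 166 CPM in gonadotropes. Rbfox3, at 15.8, 15.2, 73.4 and 141 CPM, made up most of it in the libraries labelled 22 months. The neuron list summed to 51.2, 70.3, 47 and 79.1 CPM in lactotropes and did not separate by labelled age. In corticotropes the stem list summed to 75.2, 88.5, 223 and 143 CPM and the pituicyte list to 26.2, 57.9, 109 and 259 CPM. The gonadotrope list summed to 1386, 1300, 1681 and 3101 CPM in corticotropes. These sums were higher in both libraries labelled 22 months, as were Grin2a and Gabrg3 in corticotropes. The neuron list, at 88.3, 70.8, 64.0 and 110 CPM in corticotropes, did not separate by labelled age. The part of RNA of these other classes in the calls was not tested beyond these values.

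In stem-like nuclei 6 of 14 genes changed, 4 higher and 2 lower, on a background of 5.92%, and all 6 were among the 12 of 100 kb or more (15.1% of all such genes). Grik2 was at 21.6, 22.8, 103 and 87 CPM, the 2 labelled ages far apart and the libraries within each close (log2 fold change 2.06 ± 0.28 (SE), adjusted p = 1.3e-09). Both AMPA genes that passed fell, Gria4 at 149.8, 332, 78.1 and 70.0 CPM (log2 fold change -1.60 ± 0.21 (SE), adjusted p = 4.0e-10) and Gria1 at 239, 202, 57.8 and 123 CPM (log2 fold change -1.46 ± 0.21 (SE), adjusted p = 8.4e-09). Gabrb1 was higher, at 26.7, 70.0, 84.3 and 82.7 CPM, with the values of 3 libraries close together (log2 fold change 0.85 ± 0.25 (SE), adjusted p = 0.022). Grm7 was at 11.4, 10.6, 105 and 64.7 CPM (log2 fold change 2.90 ± 0.33 (SE), adjusted p = 3.5e-13). Thinned to 1500 UMIs, Grm7 was found in 1.40, 0.478, 9.07 and 4.21% of stem-like nuclei. Grin2a, Gabrg3 and Grid1, the receptor genes with their highest level in this class, did not pass (adjusted p = 0.71, 0.26 and 0.89). On leaving out libraries in turn, the calls lost (library and highest adjusted p in brackets) were those of Gria4 (5-month females, 0.051), Gria1 (5-month males, 0.18) and Gabrb1 (5-month males or either 22-month library, 0.86). Grik2 and Grm7 kept theirs. Calls were also lost (setting and highest adjusted p in brackets) for Gabrb1 (DESeq2, clustering at resolution 2 with a reversed log2 fold change of -0.28, labelled age as the only term and doublets kept with a reversed log2 fold change of -0.076, 1.0).

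In somatotropes, the growth hormone cells, 7 of 33 genes changed, 5 higher and 2 lower, on a background of 9.34%, and 6 of 23 of those spanning 100 kb or more (25.2% of all such genes). Gria1 was at 147, 291, 294 and 536 CPM (log2 fold change 0.97 ± 0.13 (SE), adjusted p = 7.0e-04), with the library labelled 5-month females level with that labelled 22-month males. Grm5 stayed low, at 3.27, 6.67, 13.3 and 22.4 CPM (log2 fold change 1.90 ± 0.23 (SE), adjusted p = 3.7e-04). Gabrb1, at 987, 1468, 1555 and 1892 CPM, rose by 0.54 ± 0.15 (SE) on the log2 scale (adjusted p = 0.041), with the value of the labelled 5-month females close to that of the 22-month males. Grid1 was at 5.71, 10.7, 18.7 and 27.1 CPM (log2 fold change 1.55 ± 0.20 (SE), adjusted p = 7.0e-04), and Gabrb2 at 0.609, 1.69, 2.10 and 18.6 CPM, high in the library labelled 22-month females alone (log2 fold change 2.93 ± 0.42 (SE), adjusted p = 0.0015). Gria4, at 309, 381, 154 and 302 CPM, and Gabrd, at 1.29, 3.00, 0.443 and 0.510 CPM, fell by 0.64 ± 0.16 (SE) and 2.08 ± 0.59 (SE) on the log2 scale (adjusted p = 0.029 and 0.049). The somatotrope-like nuclei lay mainly in clusters 0 and 2 at 5 months and 1 and 17 at 22 months, and without cluster 17, whose markers scored lowest, 4 of the 7 calls were kept and those of Gabrb2, Gabrd and Grid1 were lost. Leaving out a library came with loss of the call (library and highest adjusted p in brackets) for Gria1 (any library, 0.70), Grm5 (5-month males or 22-month females, 0.30), Gabrb1 (any library, 0.82) and Grid1 (5-month males or either 22-month library, 0.31). This was also seen for Gabrb2 (either 5-month library or 22-month females, 0.75), Gria4 (any library, 0.68) and Gabrd (any library, 0.55). Under another setting with all 4 libraries, calls were lost (setting and highest adjusted p in brackets) for Gria1 (labelled age as the only term, 0.27), Grm5 (clustering at resolution 2 and labelled age as the only term, 0.11), Gabrb1 (DESeq2, clustering at resolution 2, labelled age as the only term, doublets kept, library totals as the scale and the receptor genes used in clustering, 0.33) and Grid1 (clustering at resolution 2, labelled age as the only term, doublets kept and no cluster 17, 0.36). The same held for Gabrb2 (clustering at resolution 2 with a reversed log2 fold change of -0.80, labelled age as the only term, doublets kept with a reversed log2 fold change of -0.38 and no cluster 17, 0.99), Gria4 (DESeq2, labelled age as the only term and the receptor genes used in clustering, 0.37) and Gabrd (DESeq2, clustering at resolution 2, labelled age as the only term, doublets kept, library totals as the scale, the receptor genes used in clustering and no cluster 17, 0.52).

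In thyrotropes, 4 of 23 genes changed, 1 higher and 3 lower, on a background of 2.99%, and all 4 were among the 18 of 100 kb or more (9.52% of all such genes). Grm5 was at 0, 0, 40.8 and 20.8 CPM, with no count in either library labelled 5 months. Against the floor of 3 counts per library it was at least 11.5-fold higher for the labelled males and at least 5.07-fold higher for the labelled females (adjusted p = 5.5e-04). Among the genes that fell were Grin2a, at 34.3, 65.5, 13.3 and 2.88 CPM (log2 fold change -2.72 ± 0.54 (SE), adjusted p = 0.011), and Gabrg3, at 31.9, 35.5, 11 and 0.577 CPM (log2 fold change -2.75 ± 0.63 (SE), adjusted p = 0.028). These are the directions opposite to the corticotrope calls of Grin2a and Gabrg3. With 1 library left out and labelled age as the only term, the call was lost (library and highest adjusted p in brackets) for Grm5 (either 5-month library, 0.49), Grin2a (either 5-month library, 0.58) and Gabrg3 (either 5-month library, 0.82). Other settings ended the call (setting and highest adjusted p in brackets) of Grin2a (DESeq2 and labelled age as the only term, 0.096) and Gabrg3 (DESeq2 and labelled age as the only term, 0.19).

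The other classes had few calls. In melanotropes 2 of 28 genes rose (background 2.2%), Gria1 at 36.2, 60.2, 60.8 and 118 CPM (log2 fold change 0.90 ± 0.18 (SE), adjusted p = 0.0052) and Grm7 at 116, 180.0, 213 and 266 CPM (log2 fold change 0.74 ± 0.16 (SE), adjusted p = 0.012). In pituicytes 2 of 10 rose (2.01%), Gabra3 at 102, 67.7, 129.6 and 314 CPM (log2 fold change 1.24 ± 0.31 (SE), adjusted p = 0.0075) and Grin2b at 29.1, 313, 725 and 233 CPM (log2 fold change 1.43 ± 0.31 (SE), adjusted p = 9.0e-04). The labelled ages overlapped for Grin2b, and for Gabra3 both libraries labelled 22 months were above both labelled 5 months. In fibroblast and mural-like nuclei 1 of 12 rose (0.78%), Grm7 (log2 fold change 1.36 ± 0.17 (SE), adjusted p = 0.0010). Each of these called genes spans 100 kb or more. Of all such genes, 6.06%, 3.58% and 1.82% were called in melanotropes, pituicytes and fibroblast and mural-like nuclei. No gene of 6 was called in endothelial-like nuclei (0.368%, 1 gene at an unadjusted p under 0.05 in edgeR and none called by DESeq2) or of 6 in macrophage-like nuclei (0.0238%, 3 genes at an unadjusted p under 0.05 and none called by DESeq2). In simulated data with the counts of the endothelial class, 8 of 100 genes changed 2-fold and 69 of 100 changed 4-fold were called, against 39 and 94 of 100 in lactotropes. In the fits with 1 library left out, calls lost (library and highest adjusted p in brackets) were those of Gria1 in melanotropes (either 5-month library or 22-month females, 1.0), Grm7 in melanotropes (either 5-month library or 22-month females, 0.99), Gabra3 in pituicytes (either 5-month library or 22-month females, 0.96) and Grin2b in pituicytes (5-month males or either 22-month library, 0.95). So it was for Grm7 in fibroblast and mural-like nuclei (5-month males, 0.11). The processing setting mattered (setting and highest adjusted p in brackets) for the calls of Gria1 in melanotropes (DESeq2, labelled age as the only term and doublets kept, 0.88), Grm7 in melanotropes (DESeq2, labelled age as the only term and the receptor genes used in clustering, 0.59), Gabra3 in pituicytes (DESeq2, clustering at resolution 2, labelled age as the only term and library totals as the scale, 1.0) and Grin2b in pituicytes (DESeq2, clustering at resolution 2, labelled age as the only term, doublets kept and library totals as the scale, 1.0).

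**Figure D4:**
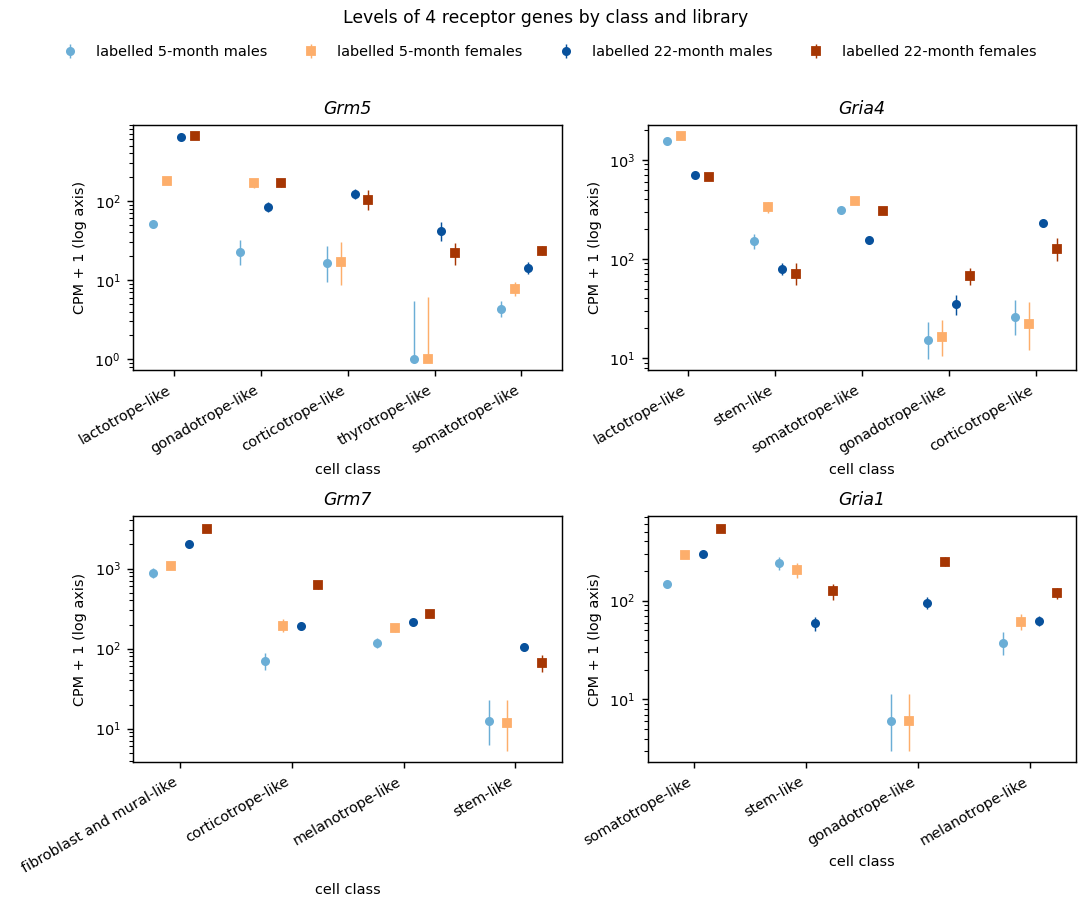
Levels (CPM + 1, log axis) of Grm5, Gria4, Grm7 and Gria1 in the classes named along the axis, 1 point per library with its 95% Poisson interval (counting error only). Lactotrope Grm5 lies at 50.8 and 180.0 CPM in the libraries labelled 5 months and at 635 and 654 CPM in those labelled 22 months, and lactotrope Gria4 moves the other way, from 1542 and 1722 to 709 and 677 CPM.

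The labelled females were compared with the labelled males in the same fits. Of 215 tests 17 passed (0.935% of all tests of genes passed), 13 higher and 4 lower in the libraries labelled female. In gonadotropes 6 of 22 genes were called (background 1.54%), all 6 among the 17 of 100 kb or more (5.64% of all such genes). Grin2a was at 32.9, 113, 99.9 and 342 CPM, higher in the labelled females at each age (log2 fold change 1.82 ± 0.19 (SE), adjusted p = 0.0010), and Grm5 at 21.5, 165, 83.2 and 169 CPM (log2 fold change 1.83 ± 0.32 (SE), adjusted p = 0.011). Grin2b, at 0, 0.722, 45 and 144 CPM, and Gria1, at 5.01, 5.05, 94 and 248 CPM, were also higher (log2 difference 1.75 ± 0.28 (SE) and 1.30 ± 0.27 (SE), adjusted p = 0.0082 and 0.032), and Gabrb1 and Gria2 lower, by 1.23 ± 0.19 (SE) and 1.31 ± 0.27 (SE) on the log2 scale (adjusted p = 0.0066 and 0.030). For Grin2b and Gria1 the labelled sexes lay apart in the libraries labelled 22 months and close together in those labelled 5 months. Gria2 was lower in the labelled female of both ages, and its labelled sexes too lay further apart in the libraries labelled 22 months. In corticotropes 3 of 25 were called (0.364%), all 3 among the 20 of 100 kb or more (1.36% of all such genes). They included Grm7 at 68.7, 193, 190.3 and 617 CPM (log2 fold change 1.65 ± 0.20 (SE), adjusted p = 0.0054) and Gabrg3 (log2 fold change 2.13 ± 0.37 (SE), adjusted p = 0.027). The Gabrg3 values of the libraries labelled 5 months were close, and those of the libraries labelled 22 months lay apart. Calls were also lost (setting and highest adjusted p in brackets) for Grin2a (doublets kept, 0.073), Grin2b (DESeq2 and doublets kept, 0.45), Grm5 (DESeq2 and doublets kept, 0.86) and Gria1 (DESeq2 and doublets kept, 1.0). Further losses of this kind were seen for Gabrb1 (DESeq2 and doublets kept, 0.97) and Gria2 (DESeq2, clustering at resolution 2 and doublets kept, 0.90).

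In melanotropes 4 of 28 genes were called by labelled sex (1.62%), all 4 among the 20 of 100 kb or more (5.72% of all such genes). Grm8 was at 248, 428, 205 and 349 CPM (log2 fold change 0.82 ± 0.16 (SE), adjusted p = 0.0078), Grin3a at 169.7, 246, 169.6 and 462 CPM (log2 fold change 1.05 ± 0.19 (SE), adjusted p = 0.0036) and Gria1 at 36.2, 60.2, 60.8 and 118 CPM (log2 fold change 0.91 ± 0.18 (SE), adjusted p = 0.0059), each higher in the labelled female of both ages, and Gabra3 was lower, at 10.2, 3.63, 18.3 and 1.49 CPM (log2 fold change -2.45 ± 0.50 (SE), adjusted p = 0.0087). Most melanotropes of the library labelled 5-month males lay in cluster 6 and those of the other 3 in cluster 18. In somatotropes 2 of 33 were called (1.68%), Gria1 (log2 fold change 0.88 ± 0.13 (SE), adjusted p = 0.0051) and Gabrb2 (log2 fold change 2.56 ± 0.42 (SE), adjusted p = 0.012), with a loss of both calls without cluster 17. Of the receptor genes spanning 100 kb or more, these were 2 of 23, against 6.95% of all genes of that length. In stem-like nuclei 1 of 14 was called (1.22%), and in endothelial-like nuclei 1 of 6 (0.184%), Gria4 at 100.3, 19.2, 163 and 38 CPM (log2 fold change -2.26 ± 0.41 (SE), adjusted p = 0.033). Both calls were on genes of 100 kb or more, of which 3.2% were called in stem-like and 0.475% in endothelial-like nuclei. In endothelial-like nuclei 3 counts correspond to 33.4, 14.4, 10.7 and 8.15 CPM, so the Gria4 values rest on few counts. The lactotrope marker list summed to 14662, 7299, 77211 and 32176 CPM in endothelial-like nuclei. Like Gria4, this sum was lower in the labelled female of each age. The part of lactotrope RNA in the Gria4 call was not tested. None was called of 36 in lactotropes (0.339%, 14 at an unadjusted p under 0.05 in edgeR and 1 called by DESeq2), 23 in thyrotropes (0.325%, 7), 10 in pituicytes (1.87%, 3), 12 in fibroblast and mural-like nuclei (0.164%, 4) or 6 in macrophages (0%, 4), and DESeq2 called none in these last 4 classes. Under another setting with all 4 libraries, calls were lost (setting and highest adjusted p in brackets) for Grm8 in melanotropes (DESeq2, 0.10), Grin3a in melanotropes (DESeq2, doublets kept and the receptor genes used in clustering, 0.13), Gria1 in melanotropes (DESeq2, doublets kept and the receptor genes used in clustering, 0.60) and Gabra3 in melanotropes (doublets kept and the receptor genes used in clustering, 0.12). This was also seen for Gria1 in somatotropes (clustering at resolution 2, doublets kept and no cluster 17, 0.075), Gabrb2 in somatotropes (clustering at resolution 2, doublets kept, the receptor genes used in clustering and no cluster 17, 0.58) and Gria4 in endothelial-like nuclei (DESeq2, doublets kept and library totals as the scale, 1.0).

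The genes around the receptors were read from 4 lists: 19 genes of glutamate and GABA synthesis and transport, 25 auxiliary and scaffold genes of the glutamate-gated channels, 8 partners of the metabotropic receptors and 12 of the GABA receptors. Over all classes, 28 of 331 tests were higher and 21 lower at the labelled 22 months, and 6 higher and 2 lower in the labelled females (7.23% of all tests of genes passed by labelled age and 0.935% by labelled sex). In gonadotropes 6 of 17 auxiliary and scaffold genes tested rose and 1 fell, on a background of 6.37% of all genes higher and 3.78% lower. Shisa6, an auxiliary protein of AMPA receptors, was at 1.43, 2.89, 80.3 and 123 CPM (log2 fold change 5.64 ± 0.34 (SE), adjusted p = 5.3e-07), and Gsg1l, Cacng2 and Cacng7 were also among those that rose, beside the higher Gria1, Gria2 and Gria4. The scaffold gene Dlg2 fell, at 783, 897, 361 and 295 CPM (log2 fold change -1.23 ± 0.20 (SE), adjusted p = 0.0014).

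In lactotropes 2 of 19 auxiliary and scaffold genes rose and 6 fell (11.3% of all genes were higher there and 10.1% lower), among them Cacng3 at 19.8, 8.11, 0.836 and 0.630 CPM (log2 fold change -3.98 ± 0.36 (SE), adjusted p = 6.5e-04). Of the partners of metabotropic receptors 2 of 7 rose and 2 fell. Homer2, a scaffold of Grm5, was at 19.4, 8.54, 2.95 and 1.16 CPM (log2 fold change -2.59 ± 0.28 (SE), adjusted p = 0.0013). Of 14 synthesis and transport genes 2 rose and 4 fell. The GABA transporter gene Slc6a11 was at 84.9, 81.3, 9.54 and 16.6 CPM (log2 fold change -2.52 ± 0.21 (SE), adjusted p = 4.2e-04), beside the falls of Gabrb1, Gabra4 and Gabbr2. The vesicular glutamate transporter gene Slc17a6 rose, at 10.6, 18, 25.7 and 45.7 CPM (log2 fold change 1.5 ± 0.15 (SE), adjusted p = 8.6e-04). Slc17a7 and Slc17a8, the other genes of this kind in the list, fell (log2 fold change -1.58 ± 0.30 (SE) and -1.75 ± 0.28 (SE), adjusted p = 0.011 and 0.0061 in edgeR). Among 10 GABA receptor partners 3 rose and 1 fell. Kctd8, an auxiliary subunit of GABA-B receptors, was among those that rose, at 296, 329, 426 and 763 CPM (log2 fold change 1.06 ± 0.18 (SE), adjusted p = 0.0077). It also rose in corticotropes at 13.1, 25.7, 105 and 44.9 CPM (log2 fold change 2.09 ± 0.42 (SE), adjusted p = 0.016), in melanotropes (log2 fold change 1.17 ± 0.19 (SE), adjusted p = 8.6e-04) and in somatotropes (log2 fold change 1.93 ± 0.35 (SE), adjusted p = 0.0060). The next 3 genes were picked after their values were seen. Of the enzymes that make GABA, Gad2 was at 28, 28, 30.8 and 59.1 CPM in melanotropes, and Gad1 had no count there in any library, which allows up to 0.625 to 1.91 CPM. The glial glutamate transporter gene Slc1a3 was at 2382, 2190.4, 1415 and 1819 CPM in pituicytes, where Gria3 and Grik3 were also highest.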

How the data were processed

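Single-nucleus RNA was measured in 4 pituitary libraries. The deposited values are whole-number UMI counts per gene and cell barcode, made with Cell Ranger 7.0.1 per the file headers and on mm10 per the submitters' processing notes. The labels and file headers do not state the counting of introns or the strand, which are thus not given in the sources used here.

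Of 38212 barcodes, those with 500 genes or more and at most 5% mitochondrial UMIs were kept, and doublets were removed with scanpy 1.11.5 (Scrublet) at 1 common score threshold, 10.5%, 11.1%, 14.2% and 11.0% of the libraries' barcodes past the filters. The counts were clustered on 3000 variable genes without the receptor genes, 30 principal components and 15 neighbours (leidenalg 0.10.2, resolution 1), giving 26 clusters. Clusters were named from marker lists by a score whose thresholds were set after the clusters had been seen. A class was used with 30 nuclei or more in each library, and its UMIs were summed per library.

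The sums were tested with edgeR 4.0.16 (R 4.3.3): TMM factors, filterByExpr, labelled age and sex as terms, the quasi-likelihood F test and Benjamini-Hochberg adjustment over all genes kept in the class. The SE of a log2 fold change is its size divided by the square root of F. Poisson and binomial intervals (exact, 95%) and floors of 3 counts cover counting error only. The alternatives were DESeq2 1.42.0, library totals, no filter, labelled age alone, each library left out, resolution 2, doublets kept, the receptor genes used in clustering and a minimum of 20 CPM; leaving out cluster 17 was added after seeing the data. The test was tested on simulated counts.

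The receptor genes, marker lists and partner lists were chosen with earlier results of these data known. Receptor genes at 10 CPM in all 4 libraries of a class were described in their highest class. Those called were named, the 10 with the smallest adjusted p of a class in full. Of partner genes at most 5 per class were named by adjusted p, and Slc17a7 and Slc17a8 in lactotropes were added beside Slc17a6. Positions are those of the GENCODE annotation of mm10, and upstream sequences those of RefSeq on GRCm38.p6. Nuclei in unnamed clusters, and the cycling and lymphocyte classes, were left out of the comparisons. Some receptor and partner genes enter the counts and are not reported here by name.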

Additional observations from a re-analysis of the deposited data

Results flagged for a closer look

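The ratio of the library labelled 22 months to that labelled 5 months went opposite ways in the labelled males and the labelled females in 9 of the pairs of a receptor gene and a class, counting those whose 95% counting intervals both excluded 1, and in 2 of them both intervals lay beyond 1.5-fold. Gria3, an AMPA receptor subunit gene, had a ratio of 0.269 (0.138 to 0.506, from 16 and 32 counts) in corticotropes of the labelled males and of 3.40 (2.12 to 5.62, from 67 and 25 counts) in those of the labelled females. Grm7 had a ratio of 4.25 (1.64 to 14.0, from 32 and 5 counts) in thyrotropes of the labelled males and of 0.439 (0.295 to 0.652, from 55 and 53 counts) in those of the labelled females. The intervals cover counting error only, each ratio compares 1 library with another, and the difference between the labelled sexes was not tested.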

How the results depend on the processing

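No paired analysis was possible because each group has 1 library and the labels carry no replicate numbers. Of the 59 calls by labelled age, 39 of 58 were kept with DESeq2, 54 of 59 with library totals, 59 with no filter, 31 with labelled age alone, 40 with doublets kept, 47 of 58 at resolution 2 and 53 of 58 with the receptor genes used in clustering. With 1 library left out, 15 were kept without the labelled 5-month males, 19 without the 5-month females, 42 without the 22-month males and 35 without the 22-month females, and none reversed. These fits also leave out labelled sex, so the missing library and the missing term cannot be told apart. With 2 libraries on one side and 1 on the other, the lone library is assumed to vary like the rest. The calls kept under all alternatives were those of Gabrb1, Gabrg3 and Grm5 in lactotropes, Grm5 in corticotropes and Grik2 and Grm7 in stem-like nuclei. Of the 17 calls by labelled sex, where no library was left out, 3 were kept under all alternatives that gave an adjusted p, among them those of Gabrg3 and Grm7 in corticotropes. For the other results the cause of a change was not tested.

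Counts of receptor genes that changed by more than 1.5 times are given by setting, first by labelled age. With DESeq2, 0 genes were called in melanotropes and pituicytes, 1 in thyrotropes and 4 in somatotropes. With labelled age alone there were 0 in melanotropes, pituicytes and somatotropes, 2 in thyrotropes and 7 in gonadotropes. At resolution 2 there were 0 in pituicytes and 2 in somatotropes. With doublets kept there were 2 in corticotropes, 3 each in endothelial, macrophage and somatotrope-like nuclei, 4 in pituicytes, 9 in gonadotropes, 10 in thyrotropes and 12 in fibroblast and mural-like nuclei. With library totals there were 0 in pituicytes, and with the receptor genes used in clustering 1 in melanotropes and 4 in somatotropes. With no filter there were 1 in macrophages, 2 in endothelial and in fibroblast and mural-like nuclei, 5 in melanotropes and 13 in corticotropes. Without cluster 17 there were 4 in somatotropes. With each library left out the count ranged from 4 to 13 in corticotropes, 0 to 4 in endothelial, 0 to 1 in fibroblast and mural, 1 to 15 in gonadotrope, 4 to 11 in lactotrope, 0 to 5 in macrophage, 0 to 3 in melanotrope, 0 to 1 in pituicyte, 0 to 2 in somatotrope, 3 to 6 in stem and 0 to 6 in thyrotrope-like nuclei.

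By labelled sex, DESeq2 called 0 in endothelial, melanotrope and stem-like nuclei and 1 each in gonadotropes and lactotropes. At resolution 2 there were 0 in somatotropes and 2 in stem-like nuclei. With doublets kept there were 0 in endothelial, gonadotrope and somatotrope-like nuclei and 1 each in fibroblast and mural, melanotrope, pituicyte and thyrotrope-like nuclei. With library totals there were 0 in endothelial-like nuclei and 2 each in lactotropes and thyrotropes. With the receptor genes used in clustering there were 1 each in lactotropes, melanotropes and somatotropes and 2 in thyrotropes. With no filter there were 1 in pituicytes, 2 each in endothelial and thyrotrope-like nuclei, 4 in somatotropes, 6 in corticotropes and 12 in lactotropes. Without cluster 17 there were 0 in somatotropes.

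The number of receptor genes at the CPM minimum became 17 in endothelial, 23 in macrophage, 18 in pituicyte and 21 in stem-like nuclei with doublets kept, and 3 in endothelial and 5 in macrophage-like nuclei at 20 CPM. By labelled age, with doublets kept, the log2 difference reversed to -0.36 for Gria4 in corticotropes, -0.38 for Gabrb2 in somatotropes and -0.076 for Gabrb1 in stem-like nuclei. At resolution 2 it reversed to -0.80 for Gabrb2 in somatotropes and -0.28 for Gabrb1 in stem-like nuclei. In simulated data a 2-fold change was called for 8 of 100 genes in the endothelial and 12 of 100 in the macrophage class. In the pituicyte class, which had the fewest nuclei, it was called for 31 of 100. The part of depth in these numbers was not tested.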

Other observations

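The receptor genes were also read in 3 clusters that were not named. Cluster 19 held 195 nuclei of the library labelled 22-month males and 257 of that labelled 22-month females. There Gria4 was at 444 and 291 CPM, Grm5 at 241 and 339 CPM and Gabrb1 at 345 and 371 CPM. Cluster 25 held 121 nuclei of the library labelled 22-month males, with Gabrb1 at 939 CPM, Gria4 at 461 CPM and Grm5 at 421 CPM. Cluster 14 had Gabrb1 at 589, 308 and 494 CPM in the libraries labelled 5-month females, 22-month males and 22-month females. These nuclei entered no comparison.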
